A study of Mus musculus with 18 samples.

Results

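Bone marrow taken 24 h after 2 Gy of gamma rays was compared between female C3H mice aged 8 weeks and female C3H mice aged 1 week. The comparison was defined by the sample titles and holds 6 of the 18 arrays of the series, 3 per age. The other 4 groups, also 3 arrays each, are marrow 6 h after 2 Gy and unirradiated marrow (0 Gy) at 8 weeks and at 1 week. All irradiated mice received the rays at 0.6 Gy/min, all mice are of the C3H background, and each array carries RNA of whole, unsorted marrow labelled with Cy3. The design text names 3 mice at each time point. The title of the study asks how age changes the survival of blood-forming progenitors and the induction of chemokine genes after irradiation.

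Marrow of newborn mice is still being colonised by blood-forming cells that arrive from the liver, and bone, vessels and muscle around it are growing. Adult marrow holds more mature granulocytes, lymphocytes, plasma cells and resident macrophages, which clear dead cells and recycle iron. Gamma rays break DNA and activate the transcription factor p53, which stops the cell cycle or kills the cell, and dying cells are followed by interferon and chemokine signals that call in and activate immune cells.

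Values are log2 signal minus the 75th percentile of the array, so 0 lies at that percentile, and a difference of 1 is a 2-fold change. A gene was called when limma's p-value, adjusted over 11888 tested genes, was under 0.05, and each difference is 8-week minus 1-week marrow ± standard error. Between 51.05 and 62.09% of probes were well above background per array over the 18 arrays. Replicates correlated at r = 0.9956 to 0.9967 at 8 weeks and 0.9944 to 0.9955 at 1 week, against 0.9591 to 0.967 between the ages. The myeloid genes Mpo and Ltf and the red cell gene Gata1, markers of the labelled tissue, were well above background on all 6 arrays. Skeletal muscle transcripts were uneven between arrays. The 19 genes of the muscle list averaged -2.46, -3.42 and -3.57 on the 8-week arrays and -1.45, 0.40 and 0.19 on the 1-week arrays, and 5.13 on replicate 2 of the unirradiated 1-week mice, whose array had a cartilage mean of 3.60.

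Between the ages, 24 h after irradiation, 7283 genes were called (61.3% of those tested). The level was higher at 8 weeks for 3989 genes (33.6%) and lower for 3294 genes (27.7%), so 54.8% of calls were higher. That share depended on the processing. It was 50.3%, with a median difference of -0.015, when arrays were scaled on probes well above background on all arrays. With backgrounds corrected by the normexp method on the files as given, it was 43.4%. At least 2-fold differences were seen in 1327 genes (11.2%), of which 761 were higher and 566 lower. The median difference over all tested genes was 0.025. Arrays of the ages did not overlap for 8338 genes (70.1%). One slide held an array of each age, and there the difference had the sign of the full comparison for 7267 of the 7283 called genes (99.8%). Those arrays are part of the comparison that made the calls, so this is no independent check of the slide. Because most genes passed the test, a group of genes is described below by its counts and its median beside these shares. In bulk marrow, a difference in the number of cells that express a gene and a difference in RNA per cell cannot be told apart.

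Genes of antibody-secreting cells, macrophages, heat shock and the interferon response led the genes that were higher at 8 weeks. Jchain, the joining chain of secreted antibodies, measured 5.24, 5.20 and 5.25 in 8-week marrow, against -0.52, -0.53 and -0.32 in 1-week marrow, a 51.6-fold difference (5.69 ± 0.11, adjusted p = 3.37e-15). Ifit3, an interferon-induced gene, measured 3.49, 3.83 and 4.0 at 8 weeks, against -0.90, -0.71 and -0.92 at 1 week (4.62 ± 0.19, adjusted p = 7.81e-12). Cd5l, which macrophages secrete, measured 4.99, 5.22 and 5.15 at 8 weeks, against 0.45, 0.98 and 0.80 at 1 week (4.38 ± 0.17, adjusted p = 3.73e-12). The arrays of each age lay close together for these genes, and no array of one age reached the other. Cd163, the macrophage receptor for haemoglobin bound to haptoglobin, was 15.4-fold higher (3.94 ± 0.15). The near-identical stress-inducible chaperone genes Hspa1b (4.82 ± 0.23) and Hspa1a (4.34 ± 0.18), whose probes may read one another's transcript, were higher on every 8-week array. Ifit3b, a close relative of Ifit3 that was well above background on 1 of 3 1-week arrays, differed by 4.0 ± 0.22.

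For 5 more of the 12 highest differences, the gene was well above background on all 3 arrays at 8 weeks and on none at 1 week. For such genes the difference is given as a bound, the mean of the brighter group over the dimmer group's mean with each dim array raised to its weakest signal well above background. Each bound, here and below, holds for the main processing, and some alternatives gave smaller differences. Degs2, an enzyme of ceramide synthesis, was at least 19.1-fold higher at 8 weeks. It measured -0.05, 0.31 and 0.03 there, against -5.44, -5.98 and -5.29 at 1 week. Dmkn (dermokine, a secreted protein first known from skin) was at least 10.4-fold higher, Tnfrsf17 (the plasma cell receptor BCMA) at least 6.8-fold, Akr1b7 (an aldo-keto reductase) at least 6-fold and Ccdc184 at least 4.66-fold. The smallest log2 differences over the alternatives were 3.002 for Degs2, 2.027 for Dmkn, 1.785 for Tnfrsf17, 1.538 for Akr1b7 and 1.415 for Ccdc184. These genes were called in all 19 alternatives.

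Cysteine protease inhibitors of the stefin family, growth genes and muscle genes led the genes that were lower at 8 weeks. Csta2, a stefin, measured -0.06, -0.31 and -0.09 in 8-week marrow, against 8.31, 8.18 and 8.35 in 1-week marrow, a 346-fold difference (-8.43 ± 0.24, adjusted p = 9.2e-14). Its relatives Stfa3 (-5.52 ± 0.12), Stfa2 (-4.93 ± 0.12) and Stfa1 (-4.19 ± 0.11) were lower on every 8-week array, and the transcripts of these near-identical genes may share probes. Igf2, the fetal growth factor, measured -2.92, -4.12 and -3.65 at 8 weeks, against 2.58, 2.86 and 2.91 at 1 week (-6.35 ± 0.60, adjusted p = 1.4e-07). Bounds applied to the mast cell protease Mcpt4 (at least 8.64-fold lower), Igf2bp3, an RNA-binding protein of fetal tissues (at least 17.1-fold), the secretory granule protein gene Chga (at least 5.86-fold) and the mesothelial gene Msln (at least 5.89-fold). Over the alternatives the smallest log2 differences were -1.039 for Mcpt4, -1.88 for Igf2bp3, -0.724 for Chga and -0.726 for Msln. Igf2bp3 was called in all 19 alternatives and the other genes in 18 of 19 each. Unlike these genes, the muscle genes Myh8 (-6.34 ± 2.19), Myl1 (-5.95 ± 1.84) and Myh1 (-5.56 ± 1.97) were scattered within each age, and each was well above background on 1 of 3 8-week arrays.

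**Figure D1:**
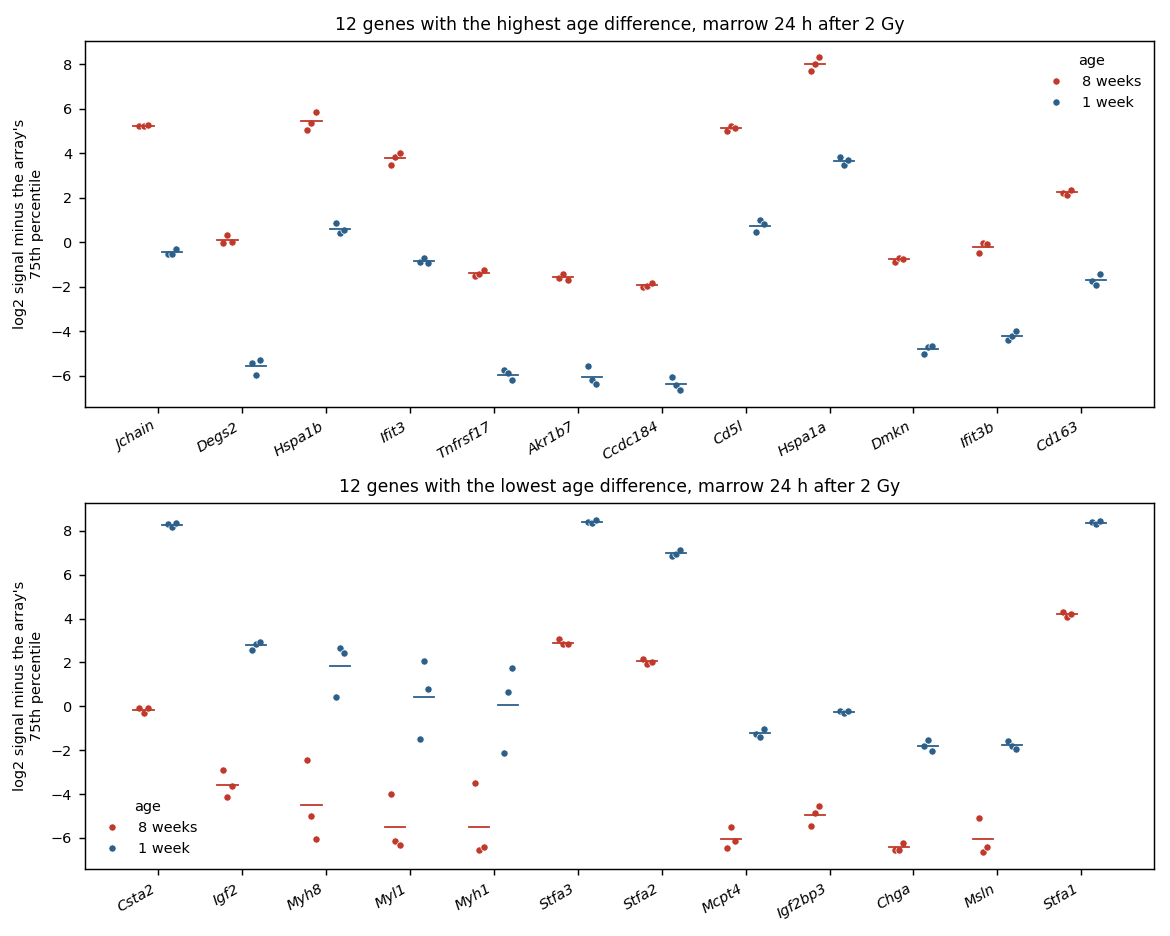
Log2 signal minus the array's 75th percentile for the 12 genes with the highest and the 12 with the lowest age difference 24 h after 2 Gy, 1 point per array and a line at each mean, with 8-week marrow left of 1-week marrow. Jchain lies at 5.20 to 5.25 against -0.53 to -0.32 and Csta2 at -0.31 to -0.06 against 8.18 to 8.35, while the muscle genes Myh8, Myl1 and Myh1 spread over several log2 units within an age.

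Interferon-stimulated genes, which type I and type II interferons induce through STAT and IRF transcription factors, were higher at 8 weeks in 30 of 32 tested members, with a median difference of 1.63, against 33.6% of all tested genes and a median of 0.025. Isg20 alone was lower (-0.24), and Rsad2 did not pass the test (-0.22). These 2 were named after their values were seen. Oasl2, an antiviral protein related to oligoadenylate synthetases, measured 3.76, 3.98 and 4.18 at 8 weeks, against 0.38, 0.68 and 0.64 at 1 week (3.41 ± 0.13, adjusted p = 3.06e-12). Oas1a, a synthetase that senses double-stranded RNA, measured 3.68, 3.96 and 3.97, against 1.12, 1.16 and 0.88 at 1 week (2.81 ± 0.14). The lowest 8-week array stood more than 2 log2 units above the highest 1-week array for both genes. Xaf1, an interferon-induced promoter of cell death (2.47 ± 0.12), Ifit1 (2.28 ± 0.20) and Ifit2 (1.46 ± 0.12), which bind viral RNA, followed.

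Guanylate-binding proteins and immunity-related GTPases, which attack intracellular pathogens and are classical targets of interferon gamma, were higher in 12 of 13 members, with a median of 1.60, or 0.967 with normexp after stray backgrounds on 1 array were repaired. Gbp2 measured 0.71, 0.85 and 1.12 at 8 weeks, against -1.50, -1.80 and -1.76 at 1 week (2.58 ± 0.13, adjusted p = 7.03e-11). Gbp6 was at least 2.61-fold higher and Gbp4 at least 3.11-fold, since neither was well above background on a 1-week array. Gbp3 (1.68 ± 0.09) and Gbp8 (1.55 ± 0.12) also showed no overlap between the ages. Irgm2, the 1 member that did not pass (0.17), was named after its value was seen.

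Promoter sequence is shown for members of these groups, because the interferon-stimulated response element is the site through which interferon-activated factors bind. The letters GAAA, then any 2 bases, then GAAA were searched on both strands in the 250 bases before the start of each gene in RefSeq (GRCm38.p6), and overlapping matches were joined. The capitals mark the matches inside each printed stretch, chosen around the match nearest the start, and Ifit3 and Ifit3b each hold 1 more match outside it. A match is read as TTTC, 2 bases and TTTC where it lies on the opposite strand.
Ifit1 (chr19:34640774-34640843, plus strand): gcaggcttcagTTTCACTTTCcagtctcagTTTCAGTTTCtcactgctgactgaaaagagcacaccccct
Ifit3 (chr19:34583377-34583446, plus strand): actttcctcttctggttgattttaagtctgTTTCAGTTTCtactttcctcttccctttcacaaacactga
Ifit3b (chr19:34607773-34607842, plus strand): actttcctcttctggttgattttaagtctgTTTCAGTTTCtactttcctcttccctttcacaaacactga
Oas1a (chr5:120907526-120907569, minus strand): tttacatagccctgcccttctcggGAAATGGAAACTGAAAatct
Gbp2 (chr3:142620574-142620643, plus strand): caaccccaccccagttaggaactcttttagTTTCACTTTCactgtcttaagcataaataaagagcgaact
Gbp3 (chr3:142559975-142560043, plus strand): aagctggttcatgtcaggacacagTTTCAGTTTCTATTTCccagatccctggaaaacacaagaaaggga
B2m (chr2:122147518-122147587, plus strand): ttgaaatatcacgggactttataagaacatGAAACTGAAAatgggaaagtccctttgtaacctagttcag
The stretches of Ifit3 and Ifit3b are identical, although the genes lie apart on chromosome 19.

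These letters were present in 821 of 27025 promoters of the table (3.04%) and in 256 of the 9561 tested genes that matched it (2.68%). Among matched members of the lists they were present in 9 of 24 interferon-stimulated genes (37.5%), 8 of 8 guanylate-binding and GTPase genes (100%), 3 of 14 MHC class I genes (21.4%) and 3 of 16 chemokine ligands (18.8%). Genes higher at 8 weeks had them in 122 of 3227 promoters (3.78%), against 50 of 2644 genes that were lower (1.89%) and 84 of 3690 that were not called (2.28%). A match describes the sequence and was not tested as a binding site.

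Antigen presentation genes were higher at 8 weeks in both classes, in counts that depended on the background correction. All 15 tested genes of MHC class I presentation, which shows peptides from inside the cell to CD8 T cells, were called higher, with a median of 0.89. Psmb8, a subunit of the immunoproteasome, measured 5.10, 5.25 and 5.05 at 8 weeks, against 3.88, 3.84 and 3.95 at 1 week (1.24 ± 0.10). H2-T22 (1.37 ± 0.07), the class I heavy chain H2-K1 (1.27 ± 0.12) and its partner B2m (0.89 ± 0.08) followed. Of 10 MHC class II genes 9 were higher (median 0.84), among them the peptide-loading gene H2-DMb1 (1.55 ± 0.11), H2-Ab1 (1.1 ± 0.11) and the invariant chain Cd74 (1.04 ± 0.09). With normexp on the files as given, 7 class I genes (median 0.463) and 3 class II genes were called higher.

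Chemokine ligands, the secreted proteins that draw leukocytes along a gradient, were higher at 8 weeks in 15 of 22 tested members and lower in 0, with a median of 1.35. Another 12 ligands with a probe were too dim to be tested. The median was 0.583 with the repaired normexp, and 8 of 14 ligands were called where all 6 compared arrays had to be well above background. The other 7 did not pass, among them Cxcl12, the stromal ligand that holds stem cells in marrow. It measured 5.97, 5.81 and 5.62 at 8 weeks, against 5.76, 5.48 and 5.60 at 1 week, where the ages overlapped (0.19 ± 0.16, adjusted p = 0.309, 95% interval -0.14 to 0.52). By the mean over its probes, Cxcl12 differed by 0.43 and passed (adjusted p = 0.0271).

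Inflammatory CC chemokines and ligands of the T-cell and NK-cell receptor CXCR3 were higher. Ccl4 measured -0.57, -0.23 and -0.24 at 8 weeks, against -3.89, -3.31 and -3.17 at 1 week (3.11 ± 0.18, adjusted p = 3.97e-10), with 2 of 3 1-week arrays well above background and differences of 2.03 to 3.25 over the alternatives. Ccl5 measured 3.53, 3.59 and 3.74, against 1.25, 1.09 and 1.45 at 1 week (2.36 ± 0.09). Ccl3 differed by 1.48 ± 0.14. The CXCR3 ligand Cxcl10 measured 0.61, 0.95 and 1.17 at 8 weeks, against -1.76, -1.29 and -1.21 at 1 week (2.33 ± 0.18), and Cxcl9 was at least 9.04-fold higher. Xcl1, made by NK and CD8 T cells, was at least 5.97-fold higher.

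Monocyte-attracting CCR2 ligands were higher too. Ccl2 measured -0.85, -0.67 and -0.73 in 8-week marrow, against -2.32, -2.29 and -2.28 in 1-week marrow (1.55 ± 0.11, adjusted p = 3.16e-09). The CCR2 ligands Ccl12 and Ccl7 were at least 1.87-fold and at least 1.45-fold higher, and Ccl8, which acts through CCR8 in mice, at least 4.11-fold. Myeloid Ccl9 (1.75 ± 0.08) and Ccl6 (0.63 ± 0.09), Ccl19, which guides dendritic and T cells through CCR7 and was well above background on 1 of 3 1-week arrays (1.32 ± 0.20), Cxcl14 (1.08 ± 0.16) and the membrane-bound Cxcl16 (0.86 ± 0.14) complete the 15. For each of them no 8-week array overlapped a 1-week array.

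Chemokine receptors were higher in 10 of 18 members and lower in 3, with a median of 0.45, beside 33.6% and 27.7% of all tested genes. Cxcr6, the receptor for Cxcl16, differed by 2.07 ± 0.18, the eosinophil receptor Ccr3 by 1.66 ± 0.12, Cxcr3 by 1.22 ± 0.09 and the neutrophil receptor Cxcr2 by 1.1 ± 0.13. Cxcr4, the receptor for Cxcl12, differed by 0.40 ± 0.09 and Ccr2 by 0.50 ± 0.13. In the other direction, Ackr2 differed by -1.625 (95% interval -2.312 to -0.938), Ackr3 by -0.713 (-1.227 to -0.198) and Cx3cr1 by -0.425 (-0.717 to -0.132). These genes were named after their values were seen.

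All 19 inflammatory cytokine and NF-kB feedback genes were called higher at 8 weeks (median 0.80), or 12 with normexp on the files as given. Il1b measured 3.43, 3.67 and 3.70 at 8 weeks, against 1.18, 1.37 and 1.29 at 1 week (2.32 ± 0.15). Its antagonist Il1rn differed by 1.41 ± 0.12, the B-cell survival factor Tnfsf13b by 1.89 ± 0.09 and Tnf by 0.92 ± 0.21. Toll-like receptor genes, which sense microbial products, were higher in 12 of 13 members (median 0.83), with Tlr2 at 1.55 ± 0.08 and Tlr4 at 1.5 ± 0.10.

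Resident macrophage and iron-recycling genes were higher in 23 of 26 members and lower in 1, with a median of 1.07. Siglec1, the sialoadhesin of macrophages at the centre of erythroid islands, measured -0.34, -0.28 and -0.12 at 8 weeks, against -3.13, -3.79 and -3.71 at 1 week (3.30 ± 0.19, adjusted p = 4.11e-10). Hmox1, which degrades haem, measured 6.08, 6.21 and 6.32, against 4.77, 4.68 and 4.74 at 1 week (1.47 ± 0.09). Spic, the factor that specifies iron-recycling macrophages, measured 3.72, 3.76 and 3.73, against 2.63, 2.62 and 2.75 at 1 week (1.07 ± 0.08). The ages were fully apart for these genes, and for Vcam1 (1.24 ± 0.11).

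Complement, ficolin and pentraxin genes were higher in 12 of 18 members and lower in 2. Macrophage C1qa differed by 1.97 ± 0.14 and C1qb by 1.66 ± 0.12, the ficolin Fcna by 2.00 ± 0.11, the central component C3 by 1.39 ± 0.07 and properdin, encoded by Cfp, by 1.18 ± 0.08. The pentraxin Ptx3 was lower (-1.91) and was named after its value was seen.

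Granulocyte genes were higher at 8 weeks at both stages of granule formation, apart from the stefins. All 17 genes of primary granules and early granulocytes were called higher (median 1.44). Mpo, myeloperoxidase, measured 9.15, 9.30 and 9.12 at 8 weeks, against 7.79, 7.81 and 7.65 at 1 week (1.44 ± 0.07, adjusted p = 5.88e-11). Neutrophil elastase Elane differed by 2.50 ± 0.13, proteinase 3 (Prtn3) by 2.09 ± 0.10 and cathepsin G (Ctsg) by 1.92 ± 0.09. Of 27 genes of secondary granules and late neutrophils, 22 were higher and 4 were lower, with a median of 0.99. Lactoferrin Ltf (0.66 ± 0.09), Ngp (0.76 ± 0.07) and Camp (0.62 ± 0.09) differed by less than 1 log2 unit. The 4 that were lower are the stefin genes Stfa1, Stfa2, Stfa3 and Stfa2l1, the last at -3.95 ± 0.10. With normexp on the files as given, 11 early and 8 late granulocyte genes were called higher (medians 0.922 and 0.495).

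Monocyte genes were higher in 16 of 19 members and lower in 2 (median 0.95), or in 10 and 1 with normexp on the files as given. F13a1, the A chain of coagulation factor XIII, differed by 2.13 ± 0.11, and the inflammatory monocyte genes Ly6c1 and Ly6c2 by 1.89 ± 0.11 and 1.73 ± 0.09. Of 21 eosinophil, basophil and mast cell genes, 10 were higher, 5 were lower and 6 were not called. Fcer1a, the IgE receptor chain, measured -0.33, -0.48 and -0.43 at 8 weeks, against -3.97, -3.92 and -3.65 at 1 week (3.43 ± 0.13), where 2 of 3 arrays were well above background, and the difference ran from 2.09 to 3.53 over the alternatives. The basophil protease Prss34 (2.60 ± 0.12) and the histamine-forming enzyme Hdc (2.44 ± 0.10) were also higher. Genes of eosinophil granules went both ways, with Epx (-0.73 ± 0.11) and Prg2 (-0.32 ± 0.08) lower and Prg3 (0.20 ± 0.08, adjusted p = 0.0471) higher, though -0.22 with normexp on the files as given.

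NK and cytotoxic granule genes had a median of 2.32, and 17 of 18 were higher at 8 weeks. The median was 1.45 with normexp on the files as given and 1.3 with the repaired normexp, and 8 of the 18 were well above background on all 6 compared arrays, all 8 called higher. Nkg7, a protein of cytotoxic granules, measured 4.28, 4.54 and 4.32 at 8 weeks, against 1.83, 1.80 and 1.67 at 1 week (2.61 ± 0.08, adjusted p = 3.53e-13). Il2rb, the beta chain of the interleukin-2 and interleukin-15 receptors, measured 1.68, 1.77 and 1.95, against -0.59, -0.83 and -0.48 at 1 week (2.43 ± 0.10). The transcription factor Tbx21 (2.41 ± 0.12) and the NK receptors Klrb1c (2.56 ± 0.16, with 1 of 3 1-week arrays well above background), Ncr1 (1.83 ± 0.15) and Klrd1 (1.82 ± 0.10) showed no overlap either. T-cell genes were higher in 9 of 16 members, lower in 1 and not called in 6 (median 0.41). All tested genes had 33.6% higher and 27.7% lower. Signalling genes that NK cells share, Cd247 (2.09 ± 0.14, with 1 of 3 1-week arrays well above background) and Zap70 (1.70 ± 0.13), were among those higher. So were Thy1 (1.748, 95% interval 1.567 to 1.928) and Cd6 (1.13, 95% interval 0.893 to 1.368). Which cells carry these differences was not tested. The T-cell receptor complex gene Cd3e measured -3.16, -2.94 and -3.11 at 8 weeks, against -3.33, -3.15 and -3.16 at 1 week, where the ages overlapped (0.14 ± 0.36, adjusted p = 0.755). Cd3d also did not pass (0.19 ± 0.13, adjusted p = 0.217), and Cd3g was lower (-0.33 ± 0.10).

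Among genes of the B lineage, plasma cell and mature B-cell genes were mostly higher, and genes of V(D)J recombination went both ways. With normexp on the files as given, 5 plasma cell and 5 mature B-cell genes were called higher. Plasma cell genes were higher in 11 of 13 members (median 0.65), with Derl3, of the secretory stress response, at 2.15 ± 0.13, Xbp1 at 0.65 ± 0.06 and syndecan Sdc1 at 0.64 ± 0.09. Mature B-cell genes were higher in 12 of 17 and lower in 1 (median 0.57), with the IgM receptor Fcmr at 1.08 ± 0.11. Genes of V(D)J recombination and the pre-B receptor divided into 4 higher, 4 lower and 6 not called (median -0.08). Among all tested genes 33.6% were higher and 27.7% lower. Dntt, the enzyme that adds untemplated bases at V(D)J joints, measured 3.45, 3.44 and 3.35 at 8 weeks, against 1.69, 1.87 and 1.84 at 1 week (1.61 ± 0.10, adjusted p = 1.56e-09). Rag1, which cuts at those joints, was at -1.57, -1.55 and -1.69, against -0.82, -0.81 and -0.79 at 1 week (-0.80 ± 0.10, adjusted p = 3.96e-06). The surrogate light chain genes Vpreb1 (-0.73 ± 0.13) and Vpreb2 (-0.88 ± 0.13) were lower as well. Arrays of the ages did not overlap for Dntt or Rag1, in opposite directions.

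**Figure D2:**
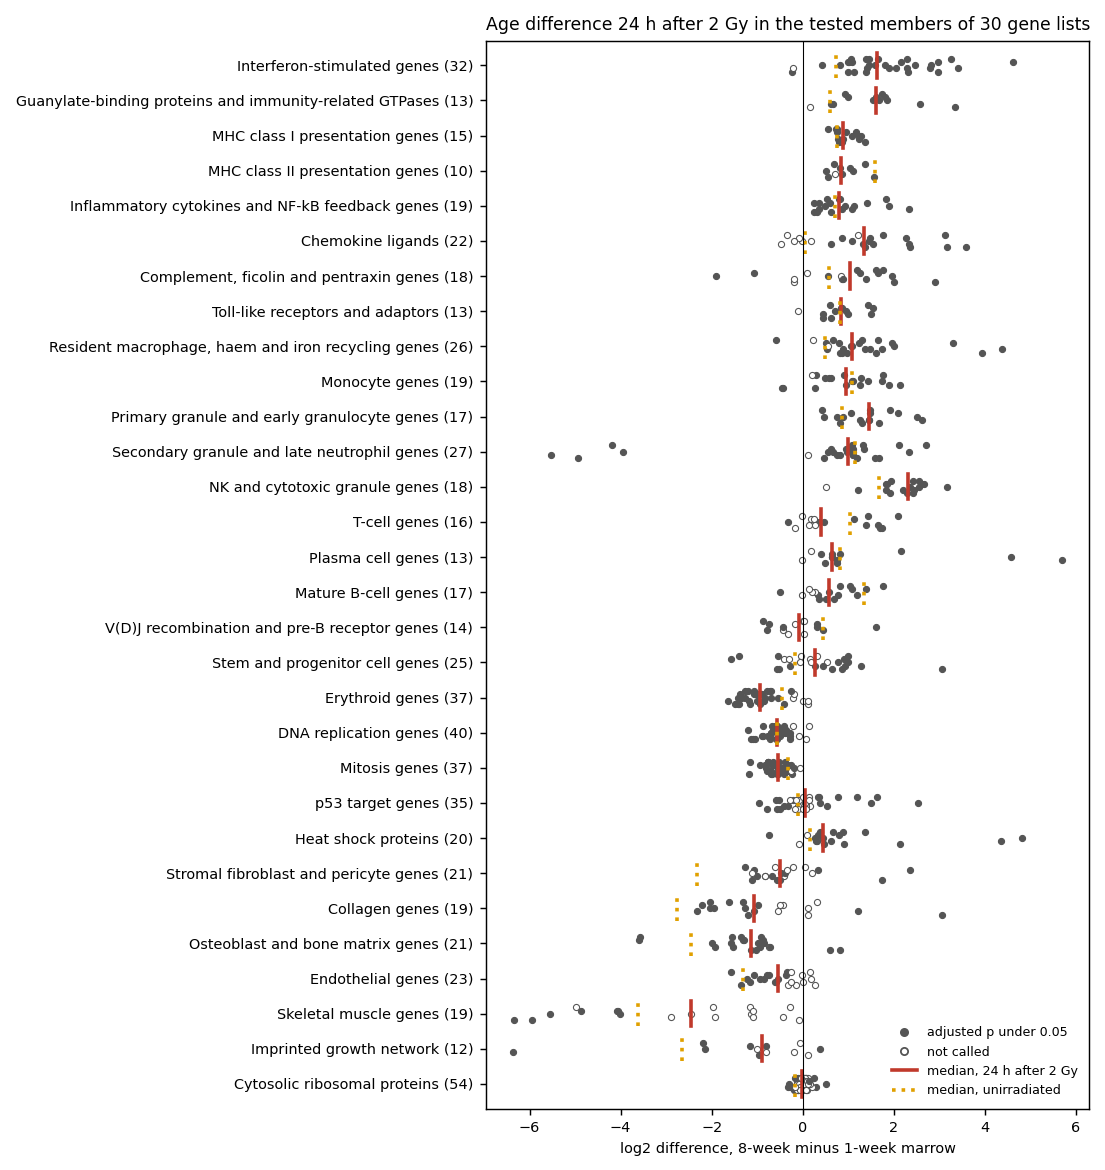
Log2 difference between 8-week and 1-week marrow 24 h after 2 Gy for every tested member of 30 gene lists, filled where the adjusted p was under 0.05, with the number tested in brackets, the list median in red and the median of the same list in unirradiated marrow dotted in yellow. Medians run from 2.32 for NK genes and 1.63 for interferon-stimulated genes to -0.94 for erythroid genes and -2.45 for the scattered muscle genes, with ribosomal proteins at -0.02.

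Red cell genes were lower at 8 weeks in 32 of 37 tested members and higher in 0, with a median of -0.94. Alad, an early enzyme of haem synthesis, measured 6.62, 6.59 and 6.61 in 8-week marrow, against 8.02, 8.10 and 7.93 in 1-week marrow (-1.41 ± 0.08, adjusted p = 4.89e-10). Gata1, the master factor of the lineage, measured 2.11, 2.17 and 2.17, against 3.42, 3.50 and 3.33 at 1 week (-1.27 ± 0.08). Tmod1, a cap of the membrane skeleton, measured 1.51, 1.41 and 1.57, against 2.82, 2.92 and 3.0 at 1 week (-1.42 ± 0.09). No array of one age reached the other for these genes, nor for the erythropoietin receptor Epor (-1.04 ± 0.10), Trim10 (-1.01 ± 0.06) or Klf1 (-0.83 ± 0.12). The 5 members that did not pass, named after their values were seen, were Alas2, Bcl11a and the globin genes Hba-a1, Hbb-y and Hbb-bh1, at -0.20 to 0.12. Megakaryocyte genes were lower in 4 of 17 and not called in 13 (median -0.35), beside 27.7% lower over all tested genes. Thrombospondin Thbs1 (-2.03 ± 0.17) was lower, while Pf4 (-0.47 ± 0.26, adjusted p = 0.126) and Itga2b (-0.18 ± 0.20, adjusted p = 0.438) did not pass. In that list the lower calls numbered 2 without replicate 1 of the 8-week mice or replicate 1 or 2 of the 1-week mice, and 8 with array weights or only the 6 compared arrays in the fit.

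Cell-cycle genes were lower at 8 weeks, by less than the red cell genes. DNA replication genes were lower in 36 of 40 members and higher in 0 (median -0.56). Rrm2, a subunit of the enzyme that makes deoxynucleotides, measured 3.11, 3.10 and 3.15 at 8 weeks, against 4.29, 4.39 and 4.28 at 1 week (-1.20 ± 0.11, adjusted p = 7.22e-08). Thymidine kinase Tk1 differed by -0.77 ± 0.07, the S-phase factor E2f1 by -0.56 ± 0.06 and the helicase subunit Mcm2 by -0.51 ± 0.09. Mitosis genes were lower in 35 of 37 members and higher in 0 (median -0.55). Ccnb2, a mitotic cyclin, measured 5.76, 5.76 and 5.76 at 8 weeks, against 6.49, 6.59 and 6.46 at 1 week (-0.76 ± 0.08). Ccna2 differed by -0.94 ± 0.10, the spindle protein gene Ckap2 by -0.76 ± 0.08, Ccnb1 by -0.69 ± 0.09 and Cdk1 by -0.51 ± 0.10, and Plk1 differed by -0.26 ± 0.06. Averaging over its probes, Cdk1 was not called (-0.33, adjusted p = 0.217).

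Promoter sequence of mitosis genes is shown for the cell-cycle homology region, TTTGAA. The DREAM complex binds this region to repress these genes outside of late cell cycle. The letters were searched on both strands in the same window and stand in capitals within the stretch around the match nearest the start, outside which Cdk1 holds 1 more match.
Cdk1 (chr10:69352913-69352957, minus strand): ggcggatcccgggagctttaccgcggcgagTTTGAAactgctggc
Ccnb2 (chr9:70421686-70421751, minus strand): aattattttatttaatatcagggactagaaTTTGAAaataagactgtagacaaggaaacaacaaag
Ckap2 (chr8:22185885-22185950, minus strand): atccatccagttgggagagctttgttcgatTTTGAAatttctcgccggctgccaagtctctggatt
Matched mitosis genes held it in 10 of 32 promoters (31.2%) and replication genes in 4 of 33 (12.1%), against 4398 of all promoters (16.3%) and 1038 of 9561 tested genes (10.9%). The share was 11.3% for genes lower at 8 weeks, 11% for genes higher and 10.4% for genes not called. The match nearest the start begins 15 bases before it in Cdk1, 167 in Ccnb2 and 101 in Ckap2. Whether these letters act as a cell-cycle homology region in these promoters was not tested.

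DNA repair genes divided into 6 higher, 12 lower and 10 not called (median -0.16). Among genes of homologous recombination, Blm, a helicase, was lower (-1.26 ± 0.11), as were Brca2 (-1.16 ± 0.14) and Xrcc3 (-0.97 ± 0.12). Rad52, named after its value was seen, was higher (0.36 ± 0.07). Genes of non-homologous end joining also went both ways. The polymerase Poll measured 1.52, 1.57 and 1.60 at 8 weeks, against 0.89, 0.77 and 0.83 at 1 week (0.73 ± 0.07), Xrcc4 differed by 0.26 ± 0.08, Xrcc5 by -0.24 ± 0.09, and Lig4 did not pass (0.11 ± 0.08, adjusted p = 0.262).

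The p53 target genes did not lean to either age, with 9 higher, 9 lower and 17 of 35 not called, and a median of 0.06. Cdkn1a, the cell-cycle inhibitor p21, measured 2.47, 2.63 and 2.51 at 8 weeks, against 2.89, 2.58 and 2.44 at 1 week, and the ages overlapped (-0.10 ± 0.16, adjusted p = 0.616, 95% interval -0.44 to 0.24). Mdm2, the inhibitor of p53 itself, measured 2.08, 1.82 and 2.13, against 1.86, 1.99 and 1.98 at 1 week (0.07 ± 0.09, adjusted p = 0.524, interval -0.11 to 0.25). Phlda3, an inhibitor of AKT, measured 4.91, 4.93 and 5.01, against 4.80, 4.82 and 4.80 at 1 week, without overlap, and did not pass (0.14 ± 0.07, adjusted p = 0.105). Ccng1 did not pass either (-0.07 ± 0.08, adjusted p = 0.434).

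Other targets of p53 differed clearly. Gdf15, a secreted stress hormone, measured -0.08, 0.13 and 0.11 at 8 weeks, against -2.32, -2.42 and -2.71 at 1 week, 5.8-fold higher (2.54 ± 0.39, adjusted p = 2.49e-05, interval 1.72 to 3.35). Plk3 (1.62 ± 0.10), the death receptor Fas (1.5 ± 0.07) and the repair gene Xpc (1.18 ± 0.06) were higher. Sesn1, a stress-induced inhibitor of growth signalling, measured 3.15, 3.09 and 3.21 at 8 weeks, against 3.95, 3.94 and 3.93 at 1 week (-0.79 ± 0.07, adjusted p = 2.84e-08). Of 14 genes of the BCL2 family 6 were higher and 4 lower, beside 33.6% and 27.7% of all tested genes. The survival gene Bcl2 was higher (1.37 ± 0.08), its relative Mcl1 too (0.59 ± 0.05), and Bcl2l1 was lower (-0.59 ± 0.12). Bmf, a trigger of cell death, was lower (-0.66 ± 0.08), although by the mean over its probes it was not called (-0.20, adjusted p = 0.453).

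**Figure D3:**
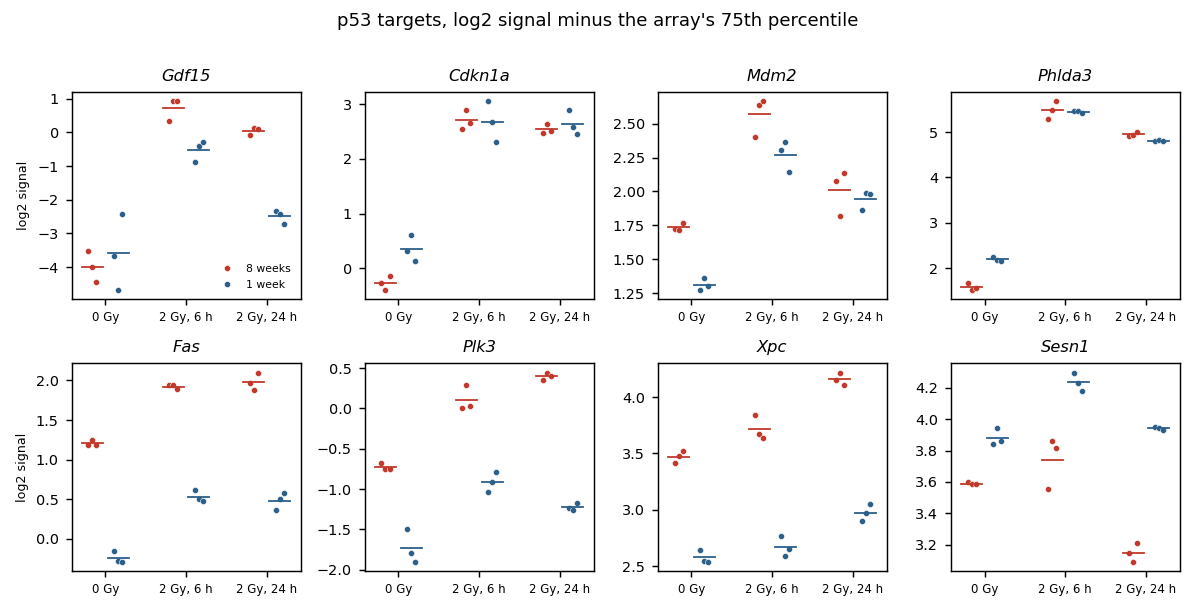
Log2 signal minus the array's 75th percentile of 8 p53 target genes on all 18 arrays, by dose and time, with 8-week arrays left of 1-week arrays and a line at each mean. At 24 h Cdkn1a and Mdm2 overlap between the ages, Gdf15 lies at -0.08 to 0.13 against -2.71 to -2.32, and Sesn1 at 3.09 to 3.21 against 3.93 to 3.95.

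Stress genes were higher at 8 weeks in most of both lists. Heat shock genes were higher in 16 of 20 members and lower in 1 (median 0.45), with Hsph1 at 2.14 ± 0.13, Chordc1 at 0.90 ± 0.06 and Hsp90aa1 at 0.79 ± 0.08. With normexp on the files as given, 5 heat shock genes were called higher (median 0.167). Immediate early genes were higher in 10 of 18 and lower in 2 (median 0.70). Fos measured 0.93, 1.66 and 0.39 at 8 weeks, against -1.26, -1.01 and -1.82 at 1 week (2.35 ± 0.26), a wider scatter than for Junb, at 5.86, 6.12 and 5.80 against 4.81, 4.75 and 4.70 at 1 week (1.18 ± 0.07). Egr1 (1.00 ± 0.13) and Zfp36, which speeds the decay of cytokine transcripts (1.26 ± 0.09), were also higher.

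Stem and progenitor cell genes were higher in 11 of 25 members, lower in 6 and not called in 8 (median 0.26). Over all tested genes, 33.6% were higher and 27.7% lower. Ly6a, which encodes the stem cell antigen Sca-1 and is also induced by interferon, measured -0.42, -0.12 and -0.11 at 8 weeks, against -3.47, -3.16 and -3.16 at 1 week (3.05 ± 0.14). Cd34 measured 3.68, 3.73 and 3.66, against 2.3, 2.40 and 2.52 at 1 week (1.28 ± 0.08), and the progenitor factor Myb differed by 0.76 ± 0.06. Flt3 (0.53 ± 0.27, adjusted p = 0.0994) and Meis1 (-0.41 ± 0.18, adjusted p = 0.0621) did not pass.

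Of the fetal RNA-binding and chromatin genes, 4 of 8 were lower at 8 weeks and 0 were higher. Lin28b, which blocks the maturation of let-7 and marks fetal blood-forming cells, measured -6.59, -6.63 and -6.39 at 8 weeks, against -3.63, -3.77 and -3.98 at 1 week. It was at least 1.46-fold lower, being well above background on no 8-week array. Hmga2, a let-7 target, measured -3.74, -3.14 and -3.69 at 8 weeks, against -2.26, -2.10 and -2.03 at 1 week (-1.39 ± 0.15), and over the mean of its probes it was not called (-0.79, adjusted p = 0.0776). Sox17, well above background on 2 of 3 8-week arrays, differed by -1.50 ± 0.25. With normexp on the files as given, 1 of the 8 was called lower. In the imprinted growth network, which wanes together after birth in many organs, 6 of 12 were lower and 1 higher (median -0.89). The shares over all tested genes were 27.7% lower and 33.6% higher. Grb10 (-1.16 ± 0.14), Mest (-0.97 ± 0.18) and Plagl1 (-0.81 ± 0.25) were lower, and Dlk1 did not pass (-1.01 ± 0.95, adjusted p = 0.376). Impact was higher (0.38 ± 0.08).

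Bone-forming, collagen and vessel genes were lower at 8 weeks, as were the muscle means given above on every 8-week array, whose part in these results was not tested. Osteoblast and bone matrix genes were lower in 18 of 21 members and higher in 2 (median -1.14), or lower in 8 with normexp on the files as given (median -0.47). Cthrc1 was at least 8.67-fold lower, though its smallest log2 difference over the alternatives was -0.783, and it was called in 18 of 19. Osteocalcin Bglap measured 3.52, 3.52 and 3.26 at 8 weeks, against 5.06, 4.73 and 5.14 at 1 week (-1.54 ± 0.31, adjusted p = 0.000419), and Spp1, osteopontin, 2.25, 1.69 and 1.57, against 3.66, 3.77 and 4.08 at 1 week (-2.00 ± 0.17). Collagen genes were lower in 11 of 19 and higher in 2 (median -1.06). Col1a1, the main collagen of bone, measured 5.05, 5.04 and 5.01, against 7.28, 7.23 and 7.59 at 1 week (-2.33 ± 0.21), while Col14a1 was higher (3.06 ± 0.29), with 2 of 3 1-week arrays well above background. Osteoclast genes were lower in 6 of 15, higher in 3 and not called in 6, beside 27.7% lower and 33.6% higher over all tested genes. Among them, cathepsin K (Ctsk) was at -2.47 ± 0.25 and tartrate-resistant phosphatase Acp5 at -1.44 ± 0.11.

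Endothelial genes were lower in 14 of 23 and higher in 0 (median -0.55). VE-cadherin Cdh5 measured -0.64, -0.61 and -0.99 at 8 weeks, against 0.58, 0.29 and 0.57 at 1 week (-1.23 ± 0.13), and Pecam1, which leukocytes share, did not pass (0.00 ± 0.09, adjusted p = 0.988). Fibroblast and pericyte genes were lower in 10 of 21 and higher in 3 (median -0.49), with Mmp2 at -1.07 ± 0.20 and Pdgfrb at -0.48 ± 0.14, against the Wnt modulator Sfrp2 at 2.36 ± 0.32. Niche factors were mixed, with 4 higher, 4 lower and 10 not called. Igf1 was higher (1.29 ± 0.09), Kitl, the KIT ligand, did not pass (0.30 ± 0.16, adjusted p = 0.11), and Ptn was lower (-1.86 ± 0.19). Adipocyte genes were higher in 7 of 13 and lower in 5. Adiponectin Adipoq measured 2.48, 2.40 and 1.73 at 8 weeks, against 1.08, 0.79 and 0.93 at 1 week (1.27 ± 0.20), and the fatty acid carrier Cd36 was lower (-1.18 ± 0.15). Plin1 was lower too (-1.88), called in 16 of 19 alternatives and at 0.178 with normexp on the files as given. Fabp4, named after its value was seen, was also lower (-0.599, 95% interval -0.847 to -0.35).

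Cartilage genes were called in 0 of 8 members by limma (median -1.17). There, 2 were called lower without replicate 2 of the unirradiated 1-week mice, and 2 with only the 6 compared arrays in the fit. Muscle genes were lower in 7 of 19 with a median of -2.45, or in 1 of 19 with the repaired normexp and 0 of 19 with normexp on the files as given. Of the muscle calls 15 were made without replicate 2 of the unirradiated 1-week mice and 16 with only the 6 compared arrays in the fit, but 2 without any 1 of replicates 2 and 3 of either age. Ribosomal proteins were called in 14 of 54 members, 5 higher and 9 lower, with a median of -0.02, and respiratory chain genes in 13 of 36, 3 higher and 10 lower, with a median of -0.08.

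How much of this age difference was already present without irradiation was asked by fitting 8-week against 1-week marrow at 0 Gy, from 6 other arrays, and testing the difference of the age differences. At 0 Gy, 7715 genes were called (64.9%), 3259 higher (27.4%) and 4456 lower (37.5%) at 8 weeks, and at 6 h 7639 (64.3%), 28.3% of tested genes higher and 36% lower. Both at 24 h and at 0 Gy, 5279 genes were called, of which 4687 had the same sign, or 64.4% of the 24 h calls and 60.8% of the 0 Gy calls. Across genes, which are not independent replicates, the differences correlated at r = 0.708. The difference of the differences (24 h minus 0 Gy) was called for 5005 genes (42.1%), positive for 3395 (28.6%) and negative for 1610 (13.5%), with a median of 0.114 over all tested genes. That median was 0.064 after quantile normalization and 0.059 when arrays were scaled on probes well above background everywhere.

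**Figure D4:**
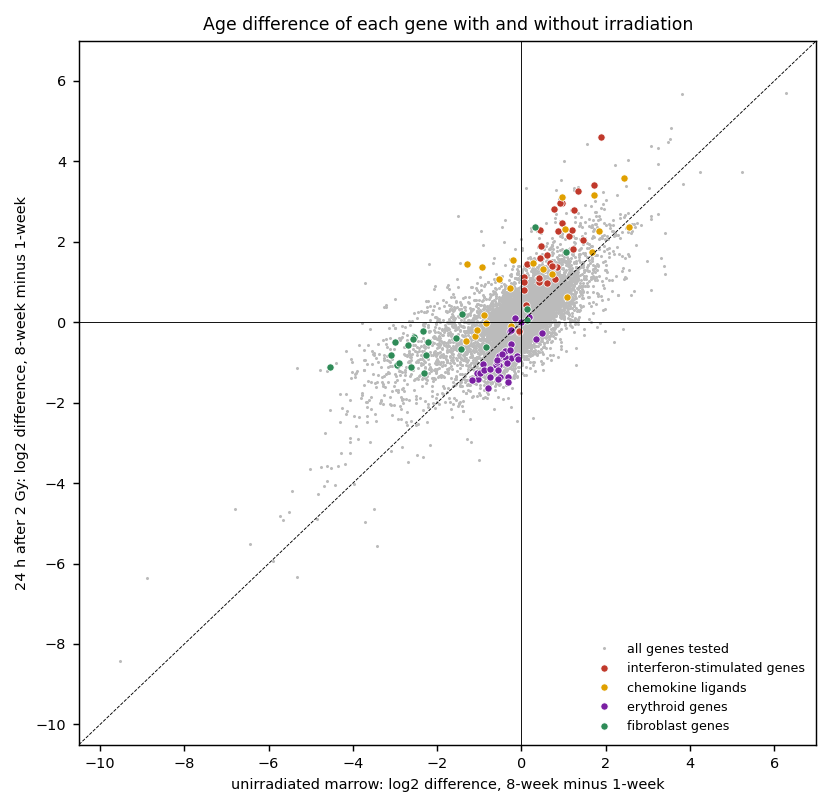
Each point is 1 of 11888 tested genes, with the 8-week minus 1-week log2 difference at 0 Gy across and 24 h after 2 Gy up, a dashed line where they are equal, and colours for 4 gene lists. Interferon-stimulated genes (median 1.63 at 24 h and 0.73 at 0 Gy) and fibroblast genes (-0.49 and -2.31) lie above the line and erythroid genes (-0.94 and -0.47) below it.

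Among the 7283 genes called at 24 h, 3090 (42.4%) had the same sign at 0 Gy and no called change of the difference. Another 1597 (21.9%) had the same sign with a called change, and 1224 (16.8%) were not called at 0 Gy and had a called change. The sign was opposite at the 2 conditions for 592 genes (8.13%), of which 425 were higher and 167 lower at 8 weeks after irradiation.

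Interferon genes were further apart after irradiation. The difference of differences was positive for 29 of 32 interferon-stimulated genes and negative for 0, and their median age difference at 0 Gy was 0.73. Ifit3 differed by 1.89 at 0 Gy, so its change was 2.73 (adjusted p = 2.46e-06), and for Ifit3b the change was 3.0 (adjusted p = 4.87e-06). Guanylate-binding genes changed in 9 of 13 (0 negative), with Gbp2 at 1.79 and Gbp6 at 2.09. Resident macrophage genes changed in 20 of 26 (0 negative), with Siglec1 at 2.48 (adjusted p = 5.91e-06), and complement genes in 10 of 18 (0 negative). MHC class I genes changed in 7 of 15 (0 negative), and B2m did not pass (0.03, adjusted p = 0.856). Of all tested genes 42.1% changed, 28.6% positively and 13.5% negatively.

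Chemokine ligands had a median age difference of 0.04 at 0 Gy, where 9 were higher and 9 lower. The change was positive for 12 of 22 and negative for 1, beside 28.6% and 13.5% of all tested genes. Ccl2, at -0.20 without irradiation (adjusted p = 0.112), changed by 1.75 (adjusted p = 9.89e-07), Ccl4 by 2.15 and Ccl12 by 2.31. Ccl7 was higher at 8 weeks at 24 h and lower at 0 Gy (-1.28), a change of 2.73 (adjusted p = 3.78e-05). It was well above background on no 1-week array at 24 h. Cxcl14 likewise was at -0.53 at 0 Gy, with a change of 1.60. The differences of Ccl5 (2.54 at 0 Gy, change -0.18, adjusted p = 0.283), Ccl9 (1.67, change 0.09, adjusted p = 0.593) and Ccl8 (1.83, change 0.43, adjusted p = 0.509) showed no called change.

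**Figure D5:**
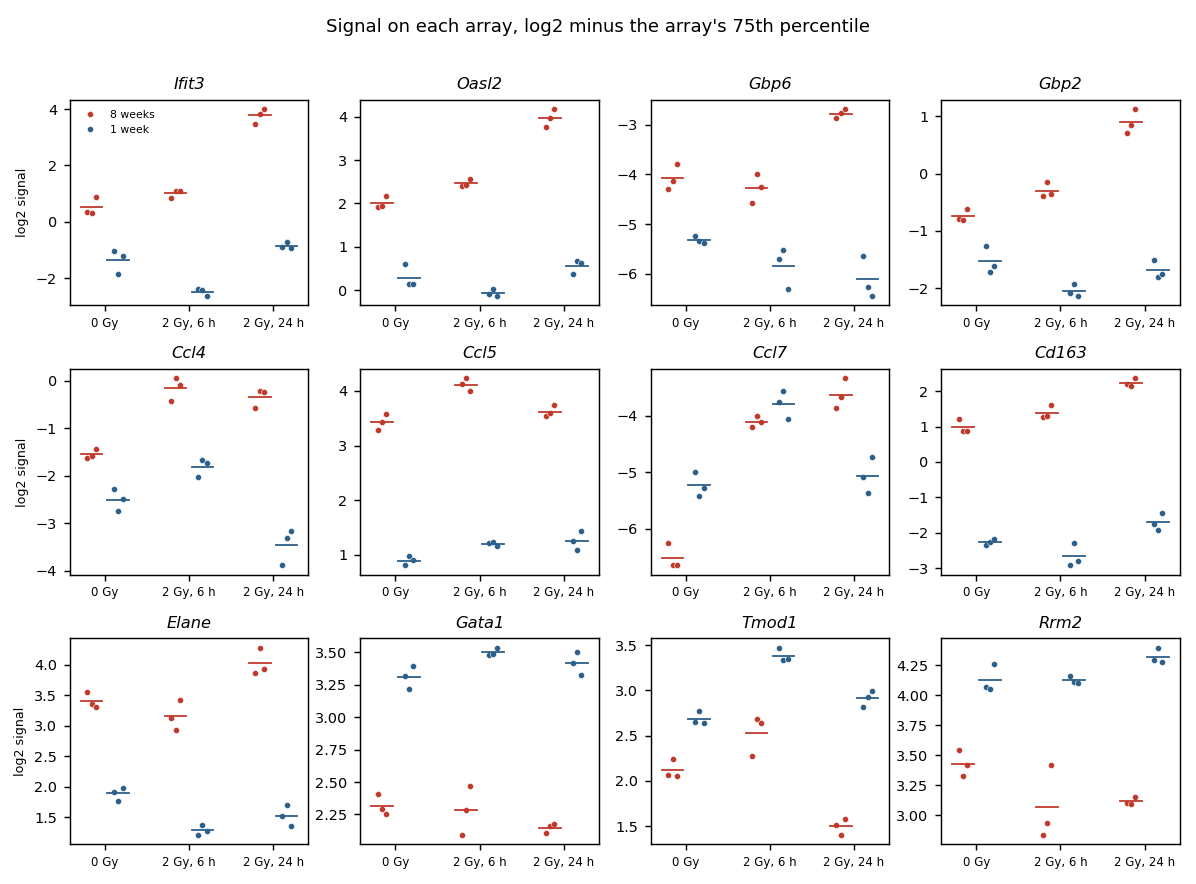
Log2 signal minus the array's 75th percentile of 12 genes on all 18 arrays, by dose and time, with 8-week arrays left of 1-week arrays and a line at each mean. At 24 h Ifit3 lies at 3.49 to 4.0 against -0.92 to -0.71, while the age difference of Ccl7 is 1.45 at 24 h and -1.28 without irradiation, and Gata1, Tmod1 and Rrm2 lie lower at 8 weeks at 24 h.

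Red cell genes moved the other way. Their median was -0.47 at 0 Gy, and the change was negative for 23 of 37 and positive for 1. Tmod1, at -0.57 without irradiation, changed by -0.85 (adjusted p = 0.000116), and Trim10 by -0.67, while the changes of Gata1 (-0.27, adjusted p = 0.0582) and Klf1 (-0.29, adjusted p = 0.195) did not pass. Mitosis genes had a negative change in 15 of 37 and a positive one in 0, Ckap2 by -0.69, and replication genes in 3 and 2 of 40. Without replicate 2 of the unirradiated 1-week mice, 18 red cell and 11 mitosis genes had a negative change, and 1 of each list a positive one. Replication genes then had 1 negative and 3 positive changes.

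B-cell and class II genes were closer together after irradiation. All 17 mature B-cell genes were higher at 8 weeks at 0 Gy (median 1.34), and 9 had a negative change, 0 a positive one. Ms4a1, which encodes CD20, measured 3.48, 3.20 and 3.42 at 8 weeks, against 2.93, 2.95 and 3.22 at 1 week, 24 h after irradiation, where the ages overlapped (0.33 ± 0.11, adjusted p = 0.0121), beside an age difference of 1.98 at 0 Gy. Its call at 24 h was lost without replicate 1 of the 8-week mice or replicate 1 or 2 of the 1-week mice (adjusted p = 0.0503 to 0.0589). Fcer2a changed by -1.99 (adjusted p = 8.74e-06), and class II genes changed in 6 of 10, all negative, with H2-Aa at -1.10. Dntt, not called at 0 Gy (0.20, adjusted p = 0.109), changed by 1.42, and Rag1, higher at 8 weeks there (0.51), changed by -1.31 (adjusted p = 6.76e-06). Early granulocyte genes changed in 10 of 17, with 9 positive, beside 42.1% and 28.6% of all tested genes. Mpo changed by 0.96 and Prtn3 by 1.38. Cd34, at 0.00 at 0 Gy, changed by 1.27 (adjusted p = 1.31e-06).

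Stromal genes, much lower at 8 weeks without irradiation, were less so after it. Fibroblast genes had a median of -2.31 at 0 Gy and a positive change in 17 of 21, collagen genes a median of -2.75 and 14 of 19, endothelial genes -1.30 and 16 of 23, and osteoblast genes -2.45 and 10 of 21. Mmp2, at -2.95 at 0 Gy, changed by 1.87, Col4a1 by 2.1 (adjusted p = 1.07e-06) and Kitl by 1.5 (adjusted p = 9.14e-05). The 0 Gy side of these values includes replicate 2 of the 1-week mice, rich in muscle and cartilage transcript. Without that array, the positive changes numbered 16 fibroblast, 15 collagen, 17 endothelial and 11 osteoblast genes, and 2 collagen genes became negative.

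In the p53 group the change was positive for 8 of 35 genes and negative for 8, beside 28.6% and 13.5% of all tested genes. Gdf15 was not called at 0 Gy (-0.40, adjusted p = 0.383) and changed by 2.93 (adjusted p = 0.000533, interval 1.78 to 4.08). Phlda3 was lower at 8 weeks without irradiation (-0.61) and changed by 0.75 (adjusted p = 4.59e-05), Mdm2 was higher there (0.42) and changed by -0.36 (adjusted p = 0.0256), and the change of Cdkn1a did not pass (0.52, adjusted p = 0.0812). Heat shock genes changed in 14 of 20, with 13 positive, and Fos by 2.12 (adjusted p = 0.000328). Without replicate 2 of the unirradiated 1-week mice, 11 heat shock genes had a positive change and 1 a negative one.

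The greatest positive changes among genes called at 24 h also included Bmper, a regulator of BMP signals, Akr1c18, which inactivates progesterone, Fgf1 and the prostaglandin receptor Ptgfr. Bmper measured -3.19, -3.21 and -3.60 at 8 weeks, against -5.88, -6.17 and -5.89 at 1 week, at least 1.77-fold higher at 24 h, and was lower at 0 Gy (-1.50). By the mean over its probes its 24 h difference was 0.72 and not called (adjusted p = 0.215). The 24 h difference of Ptgfr was 0.91 ± 0.38 (adjusted p = 0.0476), and it was called in 8 of 19 alternatives. Akr1c18 and Ptgfr were each well above background on 1 of 3 1-week arrays. Fgf1 was at least 1.81-fold higher at 24 h and lower at 0 Gy (-0.95). Aldh1l1, a folate enzyme, measured -1.32, -1.19 and -1.36 at 8 weeks, against -2.91, -2.85 and -2.90 at 1 week (1.60 ± 0.14), after -0.65 at 0 Gy, and the alcohol dehydrogenase Adh1 was at 1.47 ± 0.18, after -0.68. Negative changes included Mageb16, which measured -1.92, -2.50 and -2.63 at 8 weeks, against -0.03, 0.49 and -0.37 at 1 week (-2.38 ± 0.24), after 0.28 at 0 Gy (adjusted p = 0.318). Ppm1e, a protein phosphatase, was lower at 24 h (-1.07 ± 0.10) and higher at 0 Gy (1.29), as were the peroxidase Gpx2 (-0.95 ± 0.11 and 0.47), Zpbp2 (-0.82 ± 0.08 and 0.19), the gamma-secretase subunit Aph1c (-0.90 ± 0.17 and 0.62) and the phosphodiesterase Pde4c (-0.81 ± 0.25 and 0.76). At 24 h, Pde4c was well above background on 2 of 3 8-week arrays. The lectin Cd209d (0.81 ± 0.12 at 24 h, 3.06 at 0 Gy) and the sulfotransferase Chst10 (1.20 ± 0.18 and 3.41) were higher at 8 weeks in both conditions.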

How the data were processed

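The deposited array files hold signal intensity per spot, background-subtracted and detrended by Agilent Feature Extraction (version 11.5.1 per the submitters' processing notes, 9.5.1.1 per the file headers). The deposited series matrix holds log2 values that equal, within r of 0.99988 to 0.99996, the same signals shifted by each array's 75th percentile and centred on each probe's median, and it served as an alternative. Flags per spot, such as well above background, are another score of 0 or 1 in the deposited files.

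Control spots and outlier-flagged spots (77 to 123 per array) were left out, log2 was taken, spots of a probe were averaged and the 75th percentile over non-control probes subtracted. Of 41174 probes, 24844 carry a gene symbol. Of 17178 genes, the brightest probe was used (5955 have more than 1), and 11888 genes were tested whose probe passed the well-above-background flag throughout at least 1 of the 6 groups. Saturated spots numbered 0 to 2 per array. All 18 arrays entered 1 fit in limma 3.58.1 (R 4.3.3, 12 residual and 4.32 prior degrees of freedom, intensity trend), with two-sided p-values adjusted by Benjamini and Hochberg. In simulated data 200 of the 11888 genes were changed between the ages at 24 h, with noise drawn independently per array. There, 91 of 100 genes changed by 1 and 69 of 100 changed by 0.5 were recovered. In the measured data 61.3% of genes were called, so these recovery shares do not describe the comparison itself. The number of arrays limits the precision. After centring on group means, same-numbered 24 h arrays of the ages did not deviate together (r of -0.158, -0.0943 and -0.0501). So few values cannot exclude that the numbers pair arrays. No label ties an array to a named mouse, so p-values measure the spread between these samples.

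Members and gene lists were chosen with earlier results of these data known. Named genes are the 12 highest and 12 lowest 24 h differences without overlap, the 6 highest and 6 lowest changes against 0 Gy, 5 opposite-sign genes each way, from each list the first 3 tested and the 4 of smallest adjusted p, every called chemokine ligand, and a fixed set (Cdkn1a, Mdm2, Gdf15, Phlda3, Lin28b, Hmga2, Igf2bp3, Igf2, H19, Dlk1, Rag1, Dntt, Mpo, Cd3e, Jchain, Ccl2 and Cxcl12, of which H19 was not tested). Clone, immunoglobulin and T-cell receptor names were left out. Alternatives changed scaling, background, filter, probe rule, variance model, block and arrays. The files give median spot signals, so normexp was run on those. A few members of the lists are counted but not reported by name here.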

Additional observations from a re-analysis of the deposited data

Results flagged for a closer look

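The age difference itself differed between irradiated and unirradiated marrow, by limma's test of the difference of differences (24 h minus 0 Gy), for 5005 of 11888 genes. Positive differences of differences were 4.14 for Bmper, 3.23 for Akr1c18, 3.21 for Fgf1, 3.0 for Ifit3b, 2.95 for Ptgfr, 2.93 for Gdf15, 2.73 for Ccl7, 2.24 for Aldh1l1 and 2.15 for Adh1. Of these, Akr1c18 lost the call without replicate 1 of either unirradiated group or replicate 2 of the 1-week mice at 24 h (adjusted p = 0.0543 to 0.0589), and Bmper did by the mean over its probes. Negative ones were -2.66 for Mageb16, -2.36 for Ppm1e, -2.35 for Adam33, -2.26 for Cd209d, -2.21 for Chst10, -1.99 for Fcer2a, -1.56 for Pde4c, -1.51 for Aph1c, -1.42 for Gpx2 and -1.01 for Zpbp2. Adam33, a metalloproteinase well above background on 2 of 3 8-week arrays, measured -4.08, -4.21 and -4.66 at 8 weeks, against -2.02, -1.64 and -1.94 at 1 week, 24 h after 2 Gy. Groups of 3 arrays were too small to test for stray samples.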

How the results depend on the processing

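Of the counts over all genes, 259 values stayed within 1.5 times under an alternative and 13 did not, and 112 counts of gene list members did not. With normexp on the background columns as given, the calls at 24 h fell to 3410 (1479 higher, 1931 lower), at 0 Gy to 2813 (1337 and 1476), at 6 h to 2935 (1419 and 1516) and for the difference of differences to 979 (590 and 389). On that setting 8-week replicate 3 at 24 h carried 11 spots with a local background over 10 times the array's median of 43.5 (the highest 65215), and the median residual SD was 0.281, against 0.115. Setting those backgrounds to the array median, an alternative chosen after seeing the data, gave a residual SD of 0.116 and 6509 calls at 24 h (3525 and 2984), with 718 of at least 2-fold in place of 1327. Signs turned under plain normexp for Aph1c (0.284, and 0.061 for its difference of differences), Cd3g (0.038), Cox5a (-0.108), Lin28b (0.174), Lpl (-0.018), Ms4a1 (-0.113), Pde4c (0.341), Plin1 (0.178), Prg3 (-0.222) and Rps29 (-0.251), and the cause was not tested further. Leaving out 1 array gave 6591 to 7429 calls at 24 h, 4306 to 4844 for the difference of differences, slide as a block 7035 and array weights 8182. With the replicate number as a block 7248 genes were called, though pairing of arrays by number was not shown. Plain normexp moved the counts of many lists, given in part beside them, and turned the cartilage median to 0.28. It also left 5 p53 targets higher and 4 lower, 0 repair genes higher, 1 BCL2 family gene higher, 4 adipocyte genes higher and 2 stem and progenitor cell genes lower. Under other alternatives, counts of muscle, megakaryocyte, ribosomal and respiratory chain genes moved, the last with 16 to 18 lower under quantile normalization, another percentile or array weights. Signal over background limits Lin28b, Ccl7, Bmper and Fgf1.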
